A study of Mus musculus with 6 samples.

Results

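The genes that build and control goblet cell mucus were followed in colon tissue of mice with chemically induced colorectal tumours, with and without daily restraint. The set held 10 genes picked by symbol: Muc2, Fcgbp, Clca1, Zg16, Tff3, Spink4, Agr2, Sytl2, Spdef and Atoh1. All 10 were found among the 20170 genes of the deposited table, all 10 were counted in every sample, and all 10 passed the filter on low counts. Both groups were wild-type C57BL/6J mice that received azoxymethane (AOM), a mutagen, at 10 mg/kg into the peritoneum and then 3 intermittent rounds of 2% dextran sulfate sodium (DSS), an irritant of the colon lining, in the drinking water. The 3 control samples had this AOM/DSS treatment alone, and the 3 stress samples had AOM/DSS plus chronic restraint stress, 3 to 4 hours each day inside a 50 mL tube with air holes. No group without AOM/DSS was analysed here, so the values describe mucus genes on the background of that model. The labels give neither age, sex, site along the colon nor tumour content. They also do not state that each sample is a separate mouse, so the p-values rest on a spread that may be partly technical. By its title the series is about chronic stress, Lactobacillus johnsonii and cancer stemness, and the comparison asks how restraint relates to expression in the diseased colon.

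Goblet cells are the secretory cells of the colon that fill and renew the mucus layer between the epithelium and the gut bacteria. Their main product is the gel-forming mucin Muc2, which is folded in the endoplasmic reticulum, heavily O-glycosylated in the Golgi, packed into granules and released at the cell surface, where it unfolds into a gel together with smaller proteins. In the mouse the lineage is set by the transcription factor Atoh1, which commits crypt cells to a secretory fate, and goblet cells mature under Spdef. In human and mouse colitis and in many colon tumours, loss of goblet cells and thinning of mucus are commonly described.

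The labels name the cell type as colorectal cancer cell, but the libraries also held RNA of other cells, among them cells that express contractile genes of smooth muscle. The summed level of 8 smooth muscle genes was 5592 to 7612 CPM (counts per 1000000 counts, scaled with TMM factors) in controls and 2537 to 4147 CPM in stress samples, without overlap. Total counts ran from 27160547 to 33017500 per sample, which puts the limit that a count of 0 allows (3 counts) at 0.0909 to 0.110 CPM, for counting error only. Some libraries stood apart. Control replicate 1 had 5670 CPM over 12 markers of absorptive colonocytes, against 1038 to 2177 CPM in the other samples, and control replicate 3 had 3126 CPM over 12 squamous epithelium genes, against 11.5 to 83.2 CPM elsewhere. The 13 general epithelial genes summed to 15259 to 19969 CPM in controls and 13233 to 17264 CPM in stress samples, with overlap. In such bulk tissue, fewer cells of a type and less RNA per cell cannot be told apart.

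Mucus genes were among the most abundant transcripts of the tissue. Levels of different genes were compared in FPKM, the authors' values per kilobase of transcript. Averaged over the 6 samples, Zg16, a lectin that binds peptidoglycan of Gram-positive bacteria, stood at 2753 FPKM and ranked 3 among the 20170 genes. Spink4, a small secreted protein with a Kazal-type protease inhibitor domain, followed at 2175 FPKM (rank 8) and Tff3, the trefoil peptide of goblet cells, at 1316 FPKM (rank 26). Agr2, the disulfide isomerase of the endoplasmic reticulum that mice need to make Muc2, had 999 FPKM. Muc2 itself had 444 FPKM and Clca1, a secreted metalloprotease that in the mouse cleaves Muc2 in the mucus, 443 FPKM. Fcgbp, a large mucus protein with von Willebrand type D domains, had 211 FPKM. The controllers of the lineage and the granule protein were far lower, with 21.0 FPKM for Spdef, 19.4 FPKM for Atoh1 and 12.4 FPKM for Sytl2, an effector of Rab27 that tethers granules.

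The order of these FPKM levels was firm only at its large steps. Agr2 lay above Muc2, and Fcgbp above Spdef, in 6 of 6 samples and with no overlap of their ranges. Spink4 was above Tff3, Clca1 above Fcgbp and Atoh1 above Sytl2 within each of the 6 samples, although their ranges over samples overlapped. Zg16 exceeded Spink4 in 3 of 6 samples and Spdef exceeded Atoh1 in 3 of 6, so the order within those pairs was not fixed. Tff3 was above Agr2 in 5 samples and Muc2 above Clca1 in 4.

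**Figure D1:**
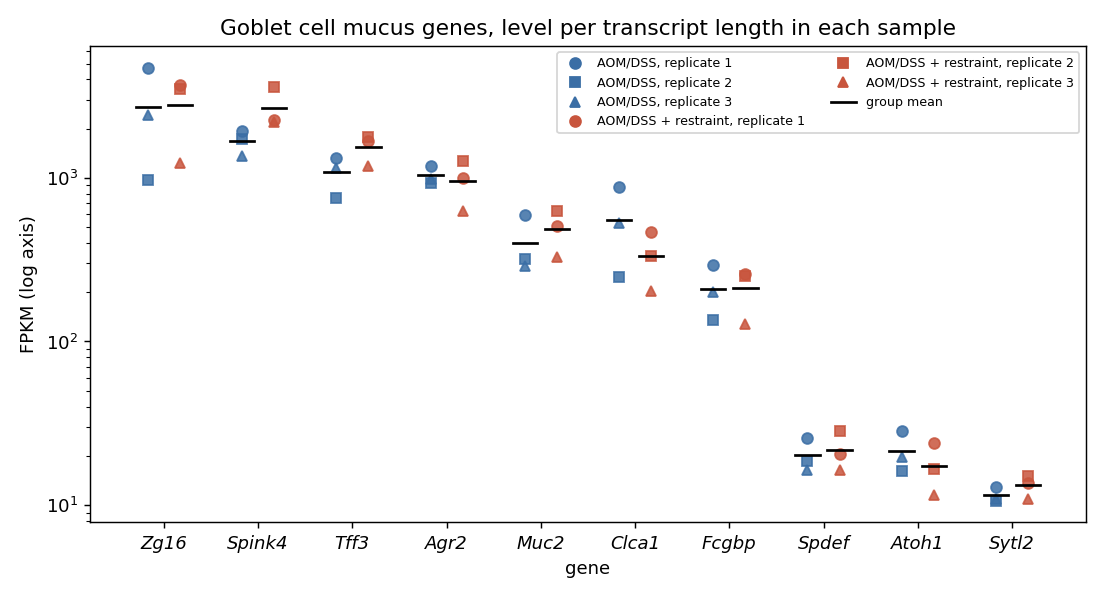
FPKM of each of the 10 genes (log axis) in each sample, with AOM/DSS controls in blue, restrained samples in red, a symbol per replicate and a bar at the mean of 3. The samples of a group spread widely for Zg16 and Clca1, and the groups are apart for Spink4 alone.

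No mucus gene differed between restrained and control samples past the threshold. By edgeR's quasi-likelihood test with Benjamini-Hochberg adjustment over 15890 genes, 0 of the 10 had an adjusted p under 0.05, as did 0% of all genes tested. At an unadjusted p under 0.05 there was 1 of 10 (Spink4), where 16.6% of all genes reached it. DESeq2 called 0 of the 10, against 5.16% of the genes to which it gave an adjusted p, and limma-voom called 0 of 10 and 0% of all genes (1 of 10 at an unadjusted p under 0.05, against 16.1% of all genes). The groups did not overlap for 1 of 10, against 23.8% of all genes. The log2 fold changes, stress minus control, split evenly with 5 higher, against 48.4% of all genes, and 5 lower around a median of 0.02, where the median of all genes was -0.015. Leaving out control replicate 1 or stress replicate 3 raised the members' median to 0.32 and 0.27, and leaving out control replicate 2 or 3 or stress replicate 1 or 2 gave -0.14, -0.086, -0.044 and -0.19.

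**Figure D2:**
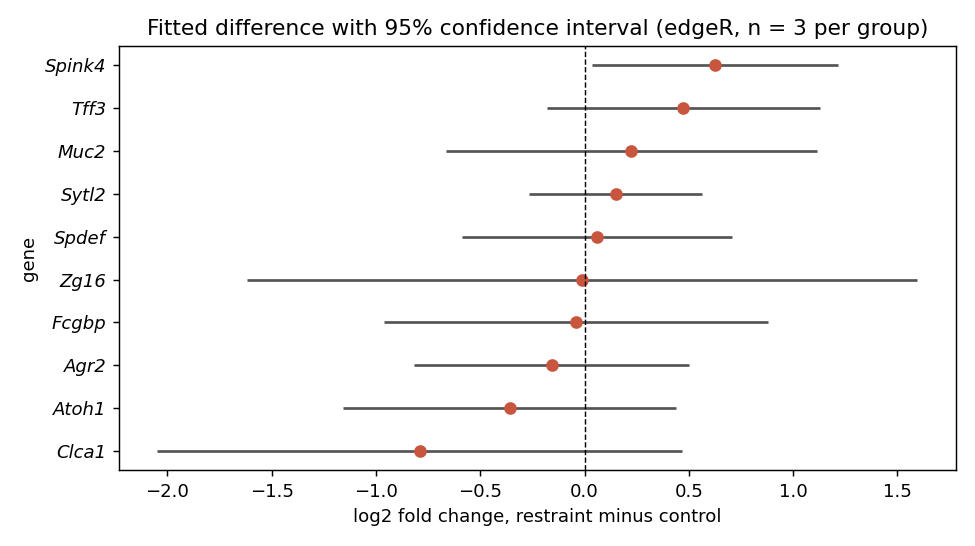
Fitted log2 fold change (restraint minus control) of each gene with its 95% confidence interval from edgeR, 3 samples per group. The interval of Spink4, 0.04 to 1.21, lies above 0 before adjustment for the genes tested, and the other 9 intervals hold 0.

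Among the gel proteins, Muc2 had 4275, 2099.8 and 1951 CPM in control replicates 1, 2 and 3 and 3443, 4189 and 2099.8 CPM in stress replicates 1, 2 and 3. Each group thus contained both high and low samples, and the ranges overlapped almost fully. The group means were 2775 ± 1301 and 3244 ± 1059 CPM (SD, n = 3 each), and the log2 fold change of 0.23 had a 95% interval from -0.66 to 1.12 (edgeR adjusted p = 0.773). Without stress replicate 2 it was -0.0018. Fcgbp ran from 1055 to 2485 CPM in controls and from 965 to 2045 CPM in stress samples, with a log2 fold change of -0.04 (interval -0.96 to 0.88, edgeR adjusted p = 0.964). Its sign turned without control replicate 1 (0.33) or stress replicate 3 (0.23).

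Zg16 was the most uneven of the 10, with a 5.34-fold range over samples. It stood at 3210.4, 601 and 1545 CPM in controls 1, 2 and 3 and at 2347, 2229 and 743 CPM in stress samples 1, 2 and 3. In each group a sample lay far below the other two. Its fitted difference was -0.01 on the log2 scale, with an interval from -1.62 to 1.6 (edgeR adjusted p = 0.995), and without control replicate 1 or stress replicate 3 it was 0.72 and 0.36.

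Clca1 had the lowest fold change of the 10. It was measured at 2774, 713 and 1551 CPM in controls and at 1366, 979 and 568 CPM in stress samples. Control replicate 1 was above every other sample and stress replicate 3 below, but control replicate 2 lay among the stress values, so the groups overlapped. Means of 1679 ± 1036 and 971 ± 399 CPM gave a log2 fold change of -0.79 ± 0.53 (SE, interval -2.05 to 0.47, edgeR adjusted p = 0.452). It was negative in each of the 6 fits that left out a sample, from -1.16 without control replicate 2 to -0.22 without control replicate 1, the library with the high colonocyte markers. The part of those markers in the value was not tested. Clca1 belongs to a family of related genes, and how reads shared between copies were counted is not given in the sources used here.

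Both small secreted peptides had higher means under restraint. Spink4 had 816, 662 and 540.2 CPM in the controls and 886, 1405 and 823 CPM in the stress samples. All 3 stress values were above all 3 controls, but the nearest pair, control replicate 1 and stress replicate 3, differed by little (816 against 823 CPM), and stress replicate 2 stood well above the rest. The means were 673 ± 138 and 1038 ± 319 CPM, a log2 fold change of 0.63 ± 0.25 (SE, n = 3 each), with an unadjusted p of 0.0405 and an adjusted p of 0.291 in edgeR and an adjusted p of 0.146 in DESeq2. Without stress replicate 2 the fold change was 0.35, and in the other fits that left out a sample it was 0.49 to 0.79. The smooth muscle sum also did not overlap between the groups, and its part in the value was not tested.

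Tff3 showed a like arrangement with overlap. Its values were 649.9, 339 and 531 CPM in controls and 777, 817 and 516 CPM in stress samples, where replicates 1 and 2 exceeded every control and replicate 3 fell between control replicates 2 and 3. The log2 fold change was 0.47 ± 0.28 (SE, interval -0.18 to 1.13, edgeR adjusted p = 0.402), and it was 0.25 without control replicate 2. Spink4 and Tff3 were the only members whose fold change exceeded the standard deviation of log2 CPM within groups (0.36 and 0.43), and neither passed the test.

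Neither Agr2 nor Sytl2, of mucus folding and release, differed past the threshold. Agr2 ran from 697 to 964 CPM in controls and from 452 to 958 CPM in stress samples, with a log2 fold change of -0.16 (interval -0.82 to 0.50, edgeR adjusted p = 0.789) that became 0.09 without stress replicate 3. Sytl2 was the steadiest member, at 56.6 to 75.1 CPM in controls and 55.9 to 81.9 CPM in stress samples, a 1.46-fold range over all 6. Its log2 fold change of 0.15 had the narrowest interval, from -0.26 to 0.56 (edgeR adjusted p = 0.673).

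Neither transcription factor differed past the threshold. Atoh1 was at 63.5, 33.2 and 41.3 CPM in controls and 49.9, 34.8 and 22.9 CPM in stress samples, with overlapping ranges. Its log2 fold change was -0.36 (interval -1.16 to 0.44, edgeR adjusted p = 0.594) and fell close to 0, at -0.055, without control replicate 1. Spdef was at 50.1, 33.2 and 29.9 CPM in controls and 37.5, 51.8 and 28.6 CPM in stress samples. The fold change of Spdef was 0.06 (interval -0.59 to 0.71, edgeR adjusted p = 0.928), and it was below 0 without control replicate 2 or 3 or stress replicate 2 (-0.026, -0.084 and -0.19).

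For all members but Spink4 and Tff3, the SD of log2 CPM within groups exceeded the absolute log2 fold change between groups. All 10 genes varied more over the 6 samples than the median of the 10518 genes with a mean of at least 10 CPM. The SD of log2 CPM was 0.24 for Sytl2 to 0.97 for Zg16, where that median was 0.21. Over all 15890 genes tested, those of lower counts included, the median was 0.29, which is above the value of Sytl2. The members together took 1.44%, 0.642% and 0.857% of all counts in control replicates 1, 2 and 3 and 1.17%, 1.27% and 0.66% in stress replicates 1, 2 and 3. Control replicate 1 and stress replicates 1 and 2 were thus the mucus-rich libraries, and control replicate 2 and stress replicate 3 the poorest. Of the 10 genes 6 were highest in control replicate 1 and 4 in stress replicate 2, while 6 were lowest in stress replicate 3.

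Some members held a more constant ratio to each other than others did. The spread of a ratio was measured as the SD over the 6 samples of the pair's log2 CPM difference, given as a description. This SD is also small where both genes vary little. Of the 10, Sytl2, Spdef and Agr2 had the smallest SD of log2 CPM (0.24, 0.37 and 0.40), and Zg16 and Clca1 the largest (0.97 and 0.83). Spdef and Sytl2 were the most constant pair (SD 0.18), followed by Muc2 with Spdef (0.22) and Spdef with Agr2 (0.22). In FPKM, Muc2 stood 17.2 to 24.9 times above Spdef in every sample. At the other end were Clca1 with Spink4 (SD 0.99) and Zg16 with Spink4 (0.90). Per unit of Clca1, Spink4 in FPKM stood at 2.20, 6.93 and 2.60 in the controls and at 4.84, 10.7 and 10.8 in the stress samples, so control replicate 2 lay above stress replicate 1. This pair was chosen for its divergence and was not tested.

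The sequences just before the start of Muc2, Spdef and Agr2 are shown for 2 reasons. The ratios of Muc2 and of Agr2 to Spdef were among the more constant across samples, and Spdef is a DNA-binding factor of the lineage. They are the 200 bases before the annotated start from RefSeq (GRCm38.p6, an earlier build than the GRCm39 named in the submitters' processing notes), read 5′ to 3′ on the strand of the gene. Capitals mark GGAT on either strand (ATCC on the printed one), the core bound by Spdef, and CAGCTG, an E-box core of the class Atoh1 binds.
Muc2 (chr7:141690140-141690339, plus strand): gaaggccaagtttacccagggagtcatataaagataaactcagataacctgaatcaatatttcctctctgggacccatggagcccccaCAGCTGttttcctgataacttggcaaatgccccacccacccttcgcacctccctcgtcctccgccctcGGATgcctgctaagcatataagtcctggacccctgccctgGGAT
Spdef (chr17:27728952-27729151, minus strand): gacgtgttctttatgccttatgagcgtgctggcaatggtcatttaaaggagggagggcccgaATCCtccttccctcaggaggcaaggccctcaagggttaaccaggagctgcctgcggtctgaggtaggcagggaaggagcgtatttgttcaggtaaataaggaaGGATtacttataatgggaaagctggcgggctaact
Agr2 (chr12:35992725-35992924, plus strand): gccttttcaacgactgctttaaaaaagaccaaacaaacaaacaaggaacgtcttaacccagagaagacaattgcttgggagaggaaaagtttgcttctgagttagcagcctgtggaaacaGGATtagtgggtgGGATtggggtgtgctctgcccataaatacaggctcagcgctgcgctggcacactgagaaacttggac
GGAT was found 2 times in each of the 3 windows, the nearest to a start beginning 4 bases before that of Muc2. CAGCTG was found once, in Muc2, 112 bases before the start. RefSeq windows were matched for 5 of the 10 members, the others being Fcgbp and Atoh1, and of these 5 windows 4 held GGAT and 1 held CAGCTG. Among 32851 promoter windows of this length 65.8% held GGAT and 10.9% held CAGCTG on either strand, so a GGAT match is common. The forkhead letters TGTTTAC were in 0 of the 5 windows and in 2.51% of all, and the Klf letters CCACCC in 3 of the 5 and in 24.1% of all. Bases just after the annotated start were found in a transcript of each matched gene except Fcgbp, so the place of that window is less certain. The Fcgbp window is included in the counts of GGAT and CCACCC. These are matches of letters only.

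The transcript levels of the members relative to Muc2 were compared within each sample. This cancels differences in the amount of goblet cell RNA only as far as both genes come from the same cells, which was not tested. Of 9 ratios to Muc2, taken from FPKM, 1 did not overlap between the groups, that of Atoh1. Of the ratios to Muc2 of all 15682 genes listed above 0 in every sample 7.79% did not overlap, and 7.52% were lower in stress samples, so 1 of 9 is near the background. Atoh1 per unit of Muc2 was 0.0478, 0.0509 and 0.0681 in controls and 0.0467, 0.0267 and 0.0352 in stress samples. Every stress value was below every control, though stress replicate 1 and control replicate 1 nearly met. The difference was -0.64 on the log2 scale (two-sided exact permutation p = 0.1, the smallest that 3 against 3 samples allow, and 0.514 after Benjamini-Hochberg adjustment over the 9 ratios). Clca1 per unit of Muc2 was 1.49, 0.779 and 1.82 in controls and 0.909, 0.536 and 0.62 in stress samples, lower by -0.94 on the log2 scale in the mean but with overlap (exact permutation p = 0.2). Agr2 per unit of Muc2 held to 1.90 to 2.02 in the stress samples and spread from 2.00 to 3.43 in controls (exact permutation p = 0.2).

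**Figure D3:**
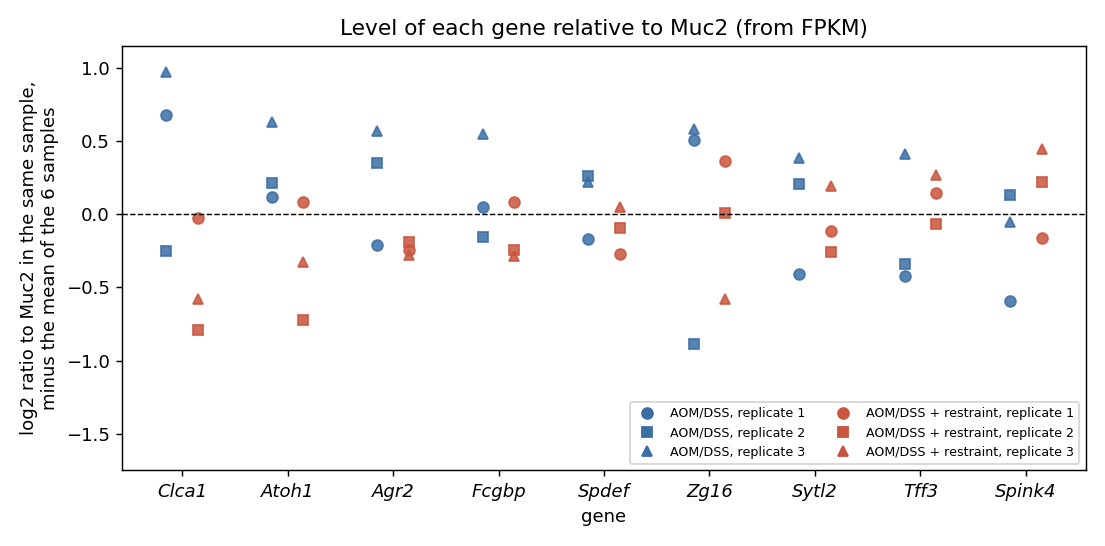
Log2 ratio of each gene to Muc2 in the same sample, from FPKM and centred on the mean of the 6 samples, with controls in blue, restrained samples in red and a symbol per replicate. Only for Atoh1 do the 3 restrained samples all lie below the 3 controls.

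A similar comparison was made per epithelial RNA, as the member's CPM in percent of the summed CPM of the 13 general epithelial genes. On this scale the groups did not overlap for 3 of the 10, all higher in stress samples, where 17.5% of all genes did not overlap in either direction and 10.6% were higher. Spink4 was at 4.08%, 4.34% and 3.31% in controls and 5.13%, 8.55% and 6.22% in stress samples. Tff3 stood at 3.25%, 2.22% and 3.26% in controls and at 4.50%, 4.97% and 3.90% in stress samples, and Sytl2 at 0.364% to 0.376% and 0.423% to 0.498%. Each of these gave an exact permutation p of 0.1, the smallest possible. Any full separation of 3 against 3 samples gives this p, so it adds nothing to the lack of overlap. It was not adjusted over the 10 members. In the edgeR fit scaled to the same 13 genes the log2 fold changes were 0.76, 0.62 and 0.28 with adjusted p of 0.402, 0.413 and 0.477, and that scaling moved the median of all genes to 0.12, so part of each value is a shift common to all genes.

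The genes whose pattern was most like that of Muc2 were ranked by the root mean square difference of centred log2 CPM over the 6 samples, among 10517 genes with a mean of at least 10 CPM. Among the members, Spdef ranked 5, Sytl2 47, Fcgbp 51, Tff3 90, Spink4 149 and Agr2 171, while Atoh1 ranked 1590, Zg16 7025 and Clca1 8635. The nearest genes outside the set were Khdc1a (0.12), Akr1c19 (0.17), Syt7 (0.18), a calcium sensor of exocytosis, Cbs (0.19), an enzyme of sulphur amino acid metabolism, Dhrs9 (0.20), a retinol dehydrogenase, and Ffar4 (0.20), a receptor for long-chain fatty acids. The measure also counts the size of a swing, so a gene that varies more than Muc2 ranks low even where it moves in the same direction. The SD of log2 CPM over the samples was 0.53 for Muc2, 0.97 for Zg16 and 0.83 for Clca1. Zg16, like Muc2, was higher in control replicate 1 and stress replicates 1 and 2 than in the other samples. The ranking rests on 6 samples.

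The wider machinery of mucus was described with 5 further lists of 112 genes in all, of which 105 were tested. Of these 44 were higher and 61 lower, with a median log2 fold change of -0.047, and 0 passed in edgeR. At an unadjusted p under 0.05 stood 10 higher and 3 lower, where the shares over all genes were 7.82% and 8.82%. The groups did not overlap for 15 of the 105, against 23.8% of all genes, and DESeq2 called 4, all higher (2.28% of all genes were called higher), among them Foxa3, Hes6 and Creb3l4. The summed smooth muscle genes also did not overlap between the groups, with 8 of 8 lower. DESeq2 called 7 of these 8, where it called 5.16% of the genes with an adjusted p in either direction. The part of the smooth muscle genes in the 4 calls of the machinery lists was not tested.

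**Figure D4:**
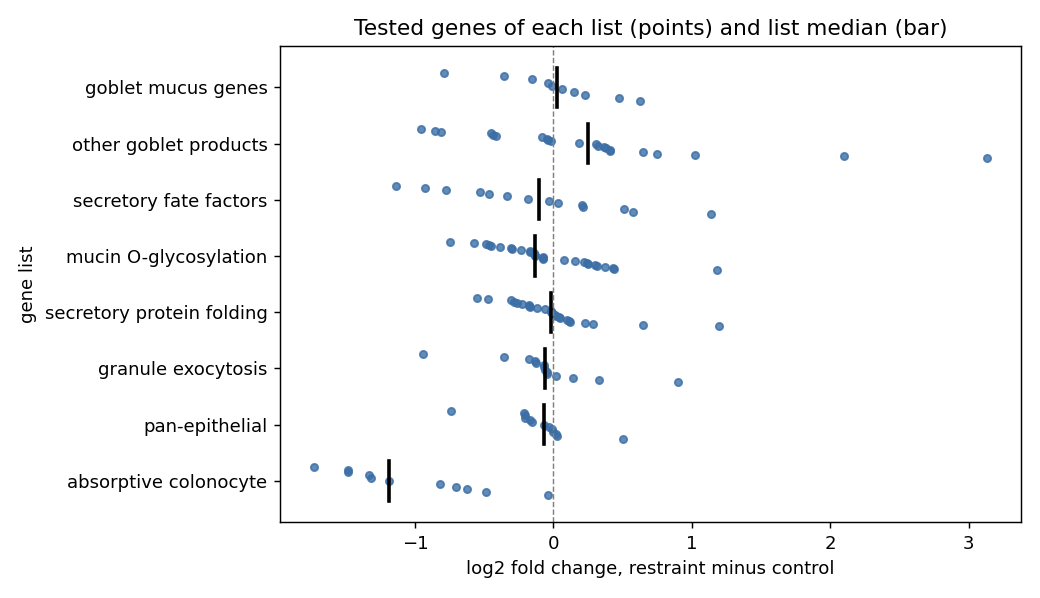
Log2 fold change (restraint minus control) of every tested gene (points) in the mucus genes, 5 lists of related machinery and 2 epithelial lists, with the median of each list as a bar. The medians of the mucus genes and machinery lie between -0.13 and 0.25, and that of the absorptive colonocyte markers at -1.19. The summed colonocyte markers were highest in control replicate 1 (5670 CPM, against 1038 to 2177 CPM in the other samples).

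Among 14 factors of secretory fate 6 were higher and 8 lower, with a median log2 fold change of -0.11 and a range from -1.14 to 1.14. The groups did not overlap for 4 of the 14, all higher in stress samples, where 12.5% of all genes were higher without overlap. The 4 factors named below are those of smallest p, and all 4 are among the higher ones. Foxa3, a forkhead factor, was at 42.3, 49.9 and 43.3 CPM in controls and 63.3, 66.5 and 71.9 CPM in stress samples, a clear gap between groups. Its log2 fold change was 0.57 ± 0.11 (SE, edgeR adjusted p = 0.191, the smallest value any gene reached, and DESeq2 adjusted p = 0.00212). Hes6, a relative of the Notch target Hes1, was at 84.4, 174 and 134 CPM in controls and 228, 283 and 352 CPM in stress samples, also without overlap (log2 fold change 1.14 ± 0.28, edgeR adjusted p = 0.195, DESeq2 adjusted p = 0.00562). Foxa1, which with Foxa2 promotes goblet cell differentiation in the mouse, and the Notch ligand Dll4 had log2 fold changes of 0.21 and 0.51 with groups apart, at edgeR adjusted p of 0.286 and 0.297.

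In the protein folding list of 26 genes 11 were higher and 15 lower. Creb3l4, a membrane-bound transcription factor of the endoplasmic reticulum, was at 20.3, 21.5 and 20.4 CPM in controls and 30.4, 38.7 and 28.3 CPM in stress samples (log2 fold change 0.65 ± 0.15, edgeR adjusted p = 0.191, DESeq2 adjusted p = 0.0125). The controls were tightly grouped and all stress samples were above them. Dnajb9, a chaperone of the same compartment, had -0.47, and Tmed6 and P4hb, a cargo receptor and a disulfide isomerase, had 1.20 and 0.23, none of them past the threshold.

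Of 14 genes of granule exocytosis 4 were higher and 10 lower. The groups were apart for 2 genes higher and 2 lower in stress samples, where the shares over all genes were 12.5% and 11.2%. Rab3d, a GTPase of secretory granules, had a log2 fold change of 0.33 with groups apart (edgeR adjusted p = 0.297). Vamp8 had -0.18, also with groups apart (edgeR adjusted p = 0.389). Nlrp6, an inflammasome sensor tied to mucus release in mouse colon, had a mean of 101 CPM in stress samples against 194 CPM in controls. Its groups overlapped, and control replicate 1 was highest at 275 CPM (log2 fold change -0.94, edgeR adjusted p = 0.306).

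The O-glycosylation list had 29 tested enzymes, 11 higher and 18 lower, with a median of -0.13. Gcnt4, which branches mucin glycans, had 4.41 CPM in controls and 10.005 CPM in stress samples (log2 fold change 1.18 ± 0.49) and the sialyltransferase St6galnac4 41.003 and 29.2 CPM (-0.49 ± 0.20), each at an edgeR adjusted p of 0.298. St3gal4, another sialyltransferase, and Galnt1, which starts O-glycans, had -0.57 and 0.30.

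Further goblet cell products were mixed, with 12 of 22 tested genes higher. Reg4, a lectin of secretory cells at the crypt base of mouse colon, was at 394 to 470 CPM in controls and 480 to 690.1 CPM in stress samples (log2 fold change 0.41 ± 0.16, edgeR adjusted p = 0.280). Wfdc2, a secreted protein with WAP domains, was at 137 to 211 CPM in controls and 51.7 to 132 CPM in stress samples (-0.85 ± 0.34, edgeR adjusted p = 0.295). For both the groups were apart, narrowly. Muc6, a gel-forming mucin of the stomach, had 0.663 to 2.74 CPM in controls and 2.17, 9.92 and 41.6 CPM in stress samples, the last of these in stress replicate 3 alone. Muc13, a membrane-bound mucin, had a log2 fold change of -0.45 (edgeR adjusted p = 0.309).

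Markers of other epithelial types were set beside these values. The 11 tested absorptive colonocyte markers were all lower in the fit (median -1.19). Of these 0 passed in edgeR, as did 0% of all genes. DESeq2 called 1, against 5.16% of the genes to which it gave an adjusted p. The sums of the 12 listed markers were 5670, 1325 and 2177 CPM in control replicates 1, 2 and 3. In stress replicates 1, 2 and 3 they were 1822, 1342 and 1038 CPM, with overlap. Control replicate 1 thus stood far above every other sample, and its part in the median was not tested. The sums of the Paneth cell list were 39.5 to 742 CPM in controls and 598 to 2352 CPM in stress samples, and those of the enteroendocrine list 334 to 387 CPM and 158 to 400.04 CPM, both with overlap. The tuft cell sums also overlapped, at 32.2 to 71.9 CPM and 68.8 to 118 CPM, and most of the stress sums was Avil, an actin-binding protein (means of 25.2 CPM in controls and 71.6 CPM in stress samples, with groups apart). In that list 4 of 6 tested genes were lower, with a median of -0.69. Dclk1, a kinase of tuft cells, had -0.93 with groups apart (edgeR adjusted p = 0.195, DESeq2 adjusted p = 0.00483), the channel Trpm5 had -1.02 with groups apart, and the factor Pou2f3 had -1.53. The B cell sums also overlapped, at 93.1 to 567 CPM and 10.1 to 208 CPM. Their part in the mucus values was not tested.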

How the data were processed

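RNA of 6 colon samples was sequenced. The authors deposited whole-number read counts per gene and FPKM values, per the file headers. Per the submitters' processing notes the build was GRCm39 and the tools included featureCounts 1.6.2, HISAT2 2.1.0 and fastp 0.19.3, then edgeR 3.24.3, StringTie 1.3.4d and DESeq2 1.22.1, with no roles stated. The annotation and the strand setting were not given, so reads of a gene and of one overlapping it on the other strand cannot be separated.

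edgeR 4.0.16 in R 4.3.3 served for filtering (filterByExpr), TMM scaling and the quasi-likelihood test with robust dispersions, at an adjusted p of 0.05. SE is the absolute log2 fold change over the square root of F. DESeq2 1.42.0 and limma 3.58.1 were alternatives. Log2 CPM used a prior count of 2. The deposited FPKM values served for levels between genes, ratios and an alternative fit on log2(FPKM + 1).

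Replicates were numbered in accession order. The members and lists were chosen with earlier results of these data known. Genes named besides the 10 members were up to 4 of smallest p in each machinery list, and the 6 most like Muc2; 1 gene that this rule selects is not reported here; the markers of other cell types are given as sums. The pairs of members set side by side were chosen after their values were seen.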

Additional observations from a re-analysis of the deposited data

How the results depend on the processing

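edgeR called 0 genes in each scaling and filter tried and with each sample left out in turn; limma-voom and limma on FPKM, run on all 6 samples, called 0, and DESeq2 called 818, and the cause of that gap was not tested. The mucus genes had 0 calls in all 14 alternatives. Their median log2 fold change ran from -0.19 to 0.32 over left-out samples, and otherwise from 0.01 (upper-quartile scaling) to 0.18 (scaling to the epithelial genes). Signs turned in 16 cases. Zg16 became 0.13 in limma-voom, 0.053 by library size only, 0.15 by epithelial scaling and 0.17 on FPKM, and Fcgbp 0.012 by library size only, 0.097 by epithelial scaling and 0.014 on FPKM. Over left-out samples Zg16 ran from -0.42 to 0.72, Fcgbp from -0.30 to 0.33, Muc2 from -0.0018 to 0.68, Spdef from -0.19 to 0.32 and Agr2 from -0.41 to 0.093; the samples concerned were control replicate 1 (Zg16 0.72, Fcgbp 0.33), control replicates 2 and 3 (Spdef -0.026 and -0.084), stress replicate 2 (Muc2 -0.0018, Spdef -0.19) and stress replicate 3 (Zg16 0.36, Fcgbp 0.23, Agr2 0.093). Spink4, Tff3 and Sytl2 stayed higher, and Clca1 and Atoh1 lower, in all 14 alternatives. For the 20 genes that the rule selects in the machinery lists these alternatives were added after seeing the data, and no sign turned. No paired analysis was possible because replicate numbers come from accession order. With 3 samples per group, the 95% intervals of 6 of the 10 mucus genes reach a 2-fold change.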
